A study of Caenorhabditis elegans with 2 samples.

Results

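MicroRNA (miRNA) genes were taken as the nuclear genes that the Ensembl annotation of the C. elegans genome (WBcel235, the same assembly as ce11) gives the biotype miRNA. There were 261 of them among 46890 nuclear genes of all biotypes, with a median annotated length of 95 bp. Each was searched for regions of 4 peak lists whose summit, the position of strongest signal that the authors gave, lay inside the gene or at most 1 kb from its nearest edge. No measured value entered the choice of genes. The lists came from a chromatin immunoprecipitation (ChIP-seq) of CEH-19, a homeodomain transcription factor, with an antibody against GFP. The worms were of strain OP739, which carries the mutation unc-119(tm4063) and a transgene, wgIs739. The transgene holds ceh-19::TY1::EGFP::3xFLAG, the tagged gene, together with unc-119(+), so that every sample had the same tagged protein and the same rescue of unc-119. Whole late embryos of mixed sex were used 5 hours after synchronization by egg bleaching. There was 1 group, with 2 biological replicates that the labels number 2 and 3, and no tissue can be resolved. Each list was called against a control file, but no untagged or control precipitation was analysed here. The dependence of any region on CEH-19 was therefore not tested, and the lists hold no measure of miRNA expression.

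A miRNA is cut from a hairpin in a longer primary transcript and guides an Argonaute protein to messenger RNAs. Pairing of its seed, bases 2 to 8 of the mature RNA, with a target lowers that target's translation or stability. In C. elegans, lin-4 and the let-7 family time larval development, the mir-35 and mir-51 families are needed in embryos, and several families are encoded in tight clusters that are transcribed together.

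The mature sequences of the families that lay at reproducible peaks are shown because 22 of the 28 genes with such a peak share their seed with another miRNA gene. Of all 261 miRNA genes, 109 share a seed, and many of the 22 are neighbours in a cluster that share a peak. The sequences are the RefSeq products on the WBcel235 assembly, written 5′ to 3′ with the seed in capitals. For each hairpin, the product with the more widely shared seed is given. The first set is the mir-35 family, 8 products of 22 bases that are identical over their first 8 bases. All but mir-42 come from 1 cluster on chromosome II.
mir-35: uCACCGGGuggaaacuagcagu
mir-36: uCACCGGGugaaaauucgcaug
mir-37: uCACCGGGugaacacuugcagu
mir-38: uCACCGGGagaaaaacuggagu
mir-39: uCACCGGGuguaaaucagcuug
mir-40: uCACCGGGuguacaucagcuaa
mir-41: uCACCGGGugaaaaaucaccua
mir-42: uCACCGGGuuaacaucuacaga
The second set is the mir-51 family, whose 6 products of 22 to 24 bases differ in their first base (U in 4) and share the seed that follows. These genes lie at 4 separate places on chromosomes IV and X.
mir-51: uACCCGUAgcuccuauccauguu
mir-52: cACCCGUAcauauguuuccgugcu
mir-53: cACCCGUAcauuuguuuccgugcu
mir-54: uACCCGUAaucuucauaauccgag
mir-55: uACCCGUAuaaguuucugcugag
mir-56: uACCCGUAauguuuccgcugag
The next set is from the cluster of the mir-64 seed group on chromosome III, with the first and the last of its 4 genes.
mir-229: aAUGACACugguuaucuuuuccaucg
mir-66: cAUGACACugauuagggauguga
The last set holds lin-4, mir-62 and the mir-8186 pair, whose 2 genes overlap on opposite strands and carry the same annotated product.
lin-4: uCCCUGAGaccucaaguguga
mir-62: uGAUAUGUaaucuagcuuacag
mir-8186.1: aCUGCUCAaaggacuuugcugc
mir-8186.2: aCUGCUCAaaggacuuugcugc

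The DNA at the summits of 7 reproducible peaks is shown, 6 beside families or genes listed above and 1 inside the mir-8192 gene, because the summit is where the signal of a peak was strongest. Each window holds the summit and 50 bases on either side, from the plus strand of ce11, with the word GAGAG or its reverse complement CTCTC in capitals.
mir-51 peak, chrIV:11026152-11026252: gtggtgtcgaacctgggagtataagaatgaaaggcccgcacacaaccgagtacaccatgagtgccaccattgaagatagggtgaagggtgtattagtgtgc
mir-52 peak, chrIV:14033939-14034039: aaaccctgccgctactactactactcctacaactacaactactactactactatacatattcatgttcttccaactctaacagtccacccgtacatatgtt
mir-54 peak, chrX:13145169-13145269: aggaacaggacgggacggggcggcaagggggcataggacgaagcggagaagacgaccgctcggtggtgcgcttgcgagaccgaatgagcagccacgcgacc
mir-35 peak, chrII:11537310-11537410: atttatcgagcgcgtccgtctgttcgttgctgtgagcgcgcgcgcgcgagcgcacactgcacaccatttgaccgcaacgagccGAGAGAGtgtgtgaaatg
mir-8192 peak, chrII:6943842-6943942: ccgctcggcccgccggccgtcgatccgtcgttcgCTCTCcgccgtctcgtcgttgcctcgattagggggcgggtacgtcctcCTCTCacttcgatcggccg
mir-229 peak, chrIII:2172134-2172234: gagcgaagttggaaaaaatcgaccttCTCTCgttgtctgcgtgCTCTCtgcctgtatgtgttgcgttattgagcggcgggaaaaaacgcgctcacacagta
lin-4 peak, chrII:5901797-5901897: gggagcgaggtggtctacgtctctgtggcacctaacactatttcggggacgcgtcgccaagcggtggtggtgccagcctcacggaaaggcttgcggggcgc
The windows range from 39.6% G or C at mir-52 to 70.3% at mir-8192. The mir-52 window runs 16 bases into the mature product itself, which starts at position 14034024.

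Of the 261 miRNA genes, 28 (10.7%, exact 95% interval 7.25 to 15.1) had a reproducible summit within 1 kb, against 2161 of 46890 nuclear genes of all kinds (4.61%). The 28 genes were served by 15 distinct peaks among the 1091 nuclear reproducible peaks, because clustered genes share a peak. Counted by locus, with same-strand miRNA genes at most 1 kb apart counted as 1 locus, 16 of 227 loci had a reproducible summit (7.05%). The nuclear genes of all kinds include 15363 piRNA genes, of which 0.859% had such a summit. The share was 5.48% of protein-coding genes, 7.38% of ncRNA genes, 7.75% of snRNA genes, 21.1% of snoRNA genes and 33.8% of tRNA genes. Counted by gene, miRNA genes came below the last 2 classes. The miRNA share by locus was also below the shares of ncRNA and snRNA genes, which were counted by gene. Intervals here and below cover counting error over genes, which share peaks, and not the spread between replicates.

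Summits lay beside miRNA hairpins more often than on them. Only 4 miRNA genes (1.53%) had their nearest reproducible summit within 200 bp, against 2.68% of all genes, 29.6% of tRNA genes and 15.9% of snoRNA genes. A further 12 (4.60%) had it beyond that and within 500 bp, where the share of all genes was 0.94%, and another 12 between 500 bp and 1 kb, where it was 0.992%. The difference from all genes, which include the piRNA genes, in the count within 1 kb thus came from summits beyond 200 bp. Clusters weigh on these bands, since genes that share a peak were counted separately. In the band from 500 bp to 1 kb, mir-38 to mir-41 and mir-64 to mir-66 were counted through 2 peaks. Those peaks lay 248 bp from mir-35 and 268 bp from mir-229. Another 14 genes (5.36%, against 1.63% of all genes) had theirs between 1 and 2 kb, a band wider than the others.

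**Figure D1:**
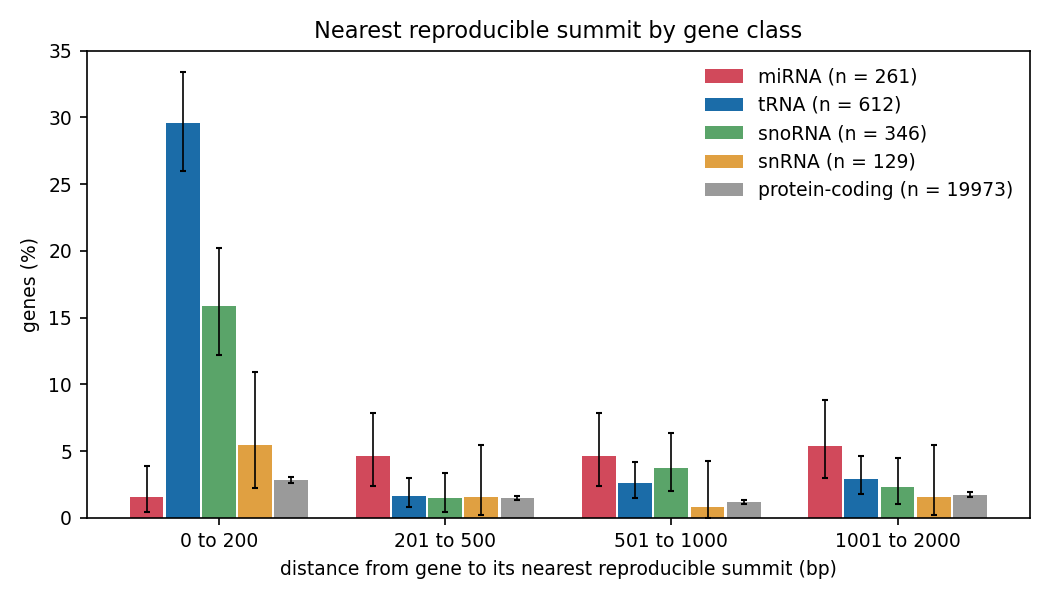
Share of genes of 5 classes (y axis, percent) by distance from the gene to its nearest reproducible summit (x axis, bp), with exact 95% intervals for counting error only. tRNA and snoRNA genes concentrate within 200 bp (29.6% and 15.9%), where miRNA genes are at 1.53%, while the miRNA share is 4.60% in each of the next 2 bands. Clustered miRNA genes that share a peak are counted separately.

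On the strand of the miRNA gene, the strongest reproducible summit was upstream for 20 of the 28 genes (71.4%), at a median of 419 bp. It was inside for 1 and downstream for 7. Among all 2161 genes with such a summit, 974 had it upstream (45.1%), 646 inside (29.9%) and 541 downstream. The downstream share was the same for the miRNA genes, so the higher upstream share stood against a lower inside share (3.57%), and miRNA genes are short. Clusters weigh on the miRNA count, since 1 peak is upstream of several genes. Counted once for each of the 15 peaks against its nearest miRNA gene, 8 were upstream, 1 inside and 6 downstream.

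**Figure D2:**
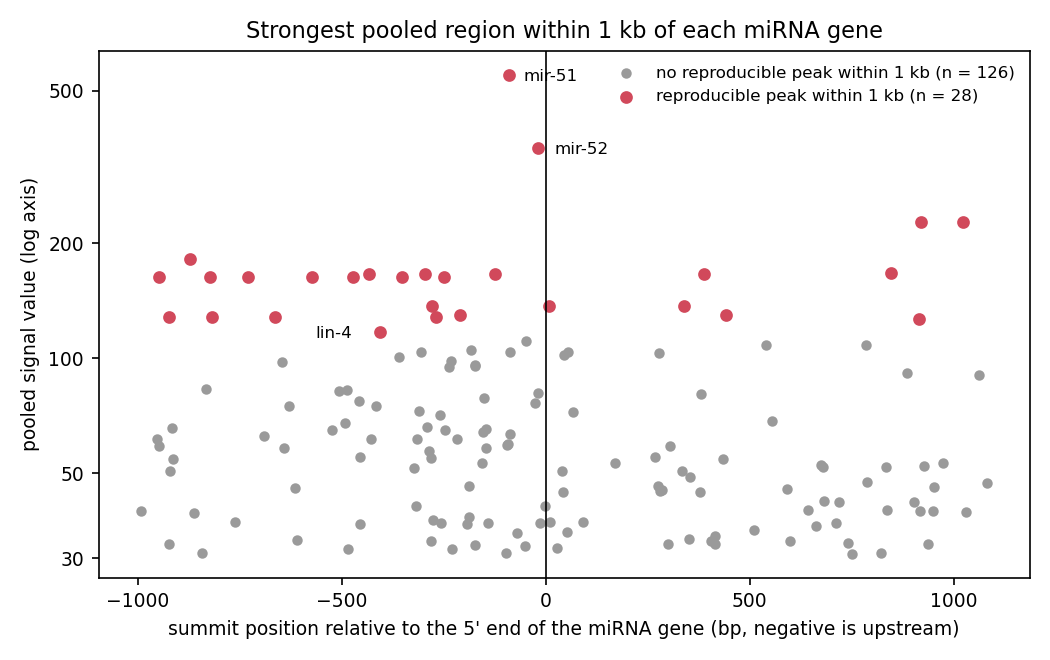
Strongest pooled region within 1 kb of each of the 154 miRNA genes that had one, by summit position from the 5′ end of the gene (x axis, bp, negative upstream) and pooled signal value (y axis, log scale, no unit stated). The 28 genes with a reproducible peak (red) are led by mir-51 (551) and mir-52 (355), both with the summit just upstream of the gene.

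The signal value, the strength that the authors' peak caller wrote for each region with no normalization stated, spanned 113 to 1140 in the reproducible list with a median of 152. The peaks at miRNA genes covered a pooled signal of 117 to 551. Of the 15, 3 were among the 272 strongest nuclear peaks and 7 ranked below 545, the middle of the list. Rank 1 is the strongest nuclear region in all that follows. Within 100 bp of the pooled summit, 12 of the 15 had a region in both replicates, against 1004 of all 1091, and within 200 bp all 15 did. The log2 ratio of replicate 3 over replicate 2 at the 12 had a median of 0.51 (SD 0.45), near the 0.56 (SD 0.53) over all matched nuclear peaks, and 10 of the 12 were higher in replicate 3. Signal values of the replicates were called separately and may not share a scale.

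**Figure D3:**
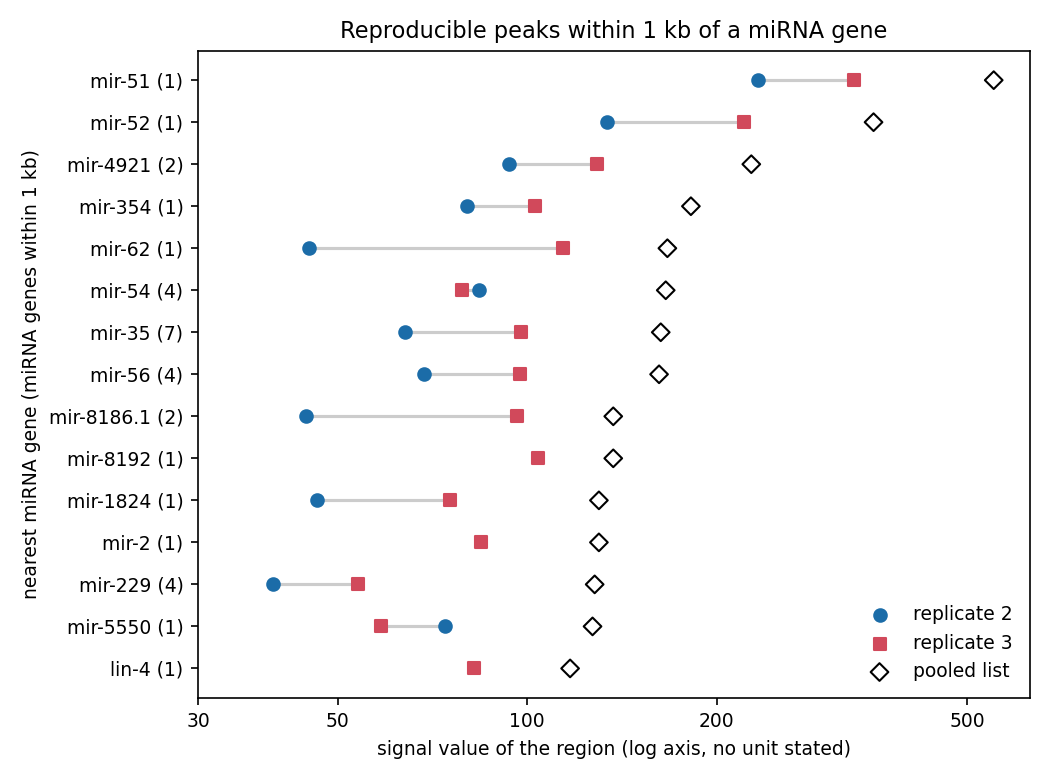
Signal value (x axis, log scale, no unit stated) in replicate 2, replicate 3 and the pooled list at the 15 reproducible peaks, labelled by the nearest miRNA gene with the number of miRNA genes within 1 kb (y axis). Replicate 3 is higher at 10 of the 12 peaks found in both within 100 bp, and mir-8192, mir-2 and lin-4 have no replicate 2 point because the nearest region there lies 103 to 139 bp away.

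The strongest peaks at miRNA genes were those of the mir-51 family, and 5 of its 6 genes had a reproducible peak. At mir-51, which lies on the minus strand of chromosome IV between genes, the signal was 233 in replicate 2 and 331 in replicate 3. Both placed the region 13th among nuclear regions, as did the pooled list with 551. The summit (chrIV:11026038-11026382, summit 11026202) was 90 bp upstream of mir-51 and inside F36H1.17, an 89-bp gene annotated as ncRNA on the same strand. At mir-52, also intergenic, the signal was 134 in replicate 2 and 221 in replicate 3, ranks 73 and 50. Its summit (chrIV:14033767-14034209, summit 14033989) lay 19 bp upstream of the gene and inside an annotated ncRNA gene of 448 bp. The next member, mir-53, lies 1480 bp from mir-51 on the same strand and had no reproducible peak within 1 kb. Its strongest pooled region was 233 bp upstream, with a signal of 98.2 and rank 1568. That is below the reproducible list, which holds 1091 nuclear peaks with a lowest signal of 113. The regions matched to that summit had 34.3 in replicate 2 and 44.7 in replicate 3, and replicate 2 held a stronger region of 68.6 at 110 bp upstream (rank 477).

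The other genes of this family, mir-54, mir-55 and mir-56, form a cluster of 404 bp on the minus strand of chromosome X, in an intron of F09A5.3 on the opposite strand. They had a reproducible peak on each side. The upstream summit (chrX:13145001-13145436) was 125 bp from mir-54, with 83.7 in replicate 2 and 78.8 in replicate 3, and lay inside the ncRNA gene F09A5.11. The other (chrX:13144155-13144590) was 318 bp downstream of mir-56, with 68.5 in replicate 2 and 97.4 in replicate 3. The pooled signals of the pair, 166 and 162, were nearly equal, and their summits were 846 bp apart. The upstream region was the stronger in replicate 2 and the downstream one in replicate 3. The annotation also places mir-55b on the other strand over mir-55, and its count rests on the same peaks.

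The 7 genes mir-35 to mir-41 of the mir-35 family fill 797 bp of chromosome II, in an intron of Y62F5A.9 on the opposite strand. A single peak served all of them (chrII:11537142-11537577, summit 11537360), 248 bp upstream of mir-35 and 948 bp upstream of mir-41. Its signal was 64.0 in replicate 2 (rank 589) and 97.9 in replicate 3 (rank 477), with 163 in the pooled list (rank 446). Both replicates had it among their strongest 1112 regions, the length of the reproducible list. The summits were not at the same base: replicate 2 placed its summit 56 bp to the left of the pooled one and replicate 3 placed it 36 bp to the right. The nearest protein-coding 5′ end was 1481 bp away, and the ncRNA gene Y62F5A.16 lay at 167 bp. The family's other gene, mir-42, lies elsewhere on the chromosome with mir-43 and mir-44 and had no reproducible peak. Its best pooled region, 217 bp upstream, had rank 5446, with 44.5 in replicate 2 and 20.0 in replicate 3.

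At the cluster of mir-229, mir-64, mir-65 and mir-66 on chromosome III, 755 bp in an intron of gcn-1 on the same strand, the peak was weaker in both replicates than at mir-35. The reproducible summit (chrIII:2171966-2172401, summit 2172184) was 268 bp upstream of mir-229 with a pooled signal of 128 (rank 795). The nearest regions had 39.5 in replicate 2 (rank 2634) and 53.8 in replicate 3 (rank 2258), neither among that replicate's strongest 1112. Each replicate held a stronger region farther upstream of mir-229, 48.8 (rank 1277) at 480 bp in replicate 2 and 93.8 (rank 545) at 383 bp in replicate 3. The summits of both these regions were still inside the reproducible peak. The region of replicate 3, at 115 bp from the pooled summit, was among that replicate's strongest 1112. For mir-66, the farthest of the 4 at 924 bp, neither replicate alone gave a region in its strongest 1112 within 1 kb. The remaining gene with this seed, mir-63, lies elsewhere, with a pooled region inside it at rank 13035.

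**Figure D4:**
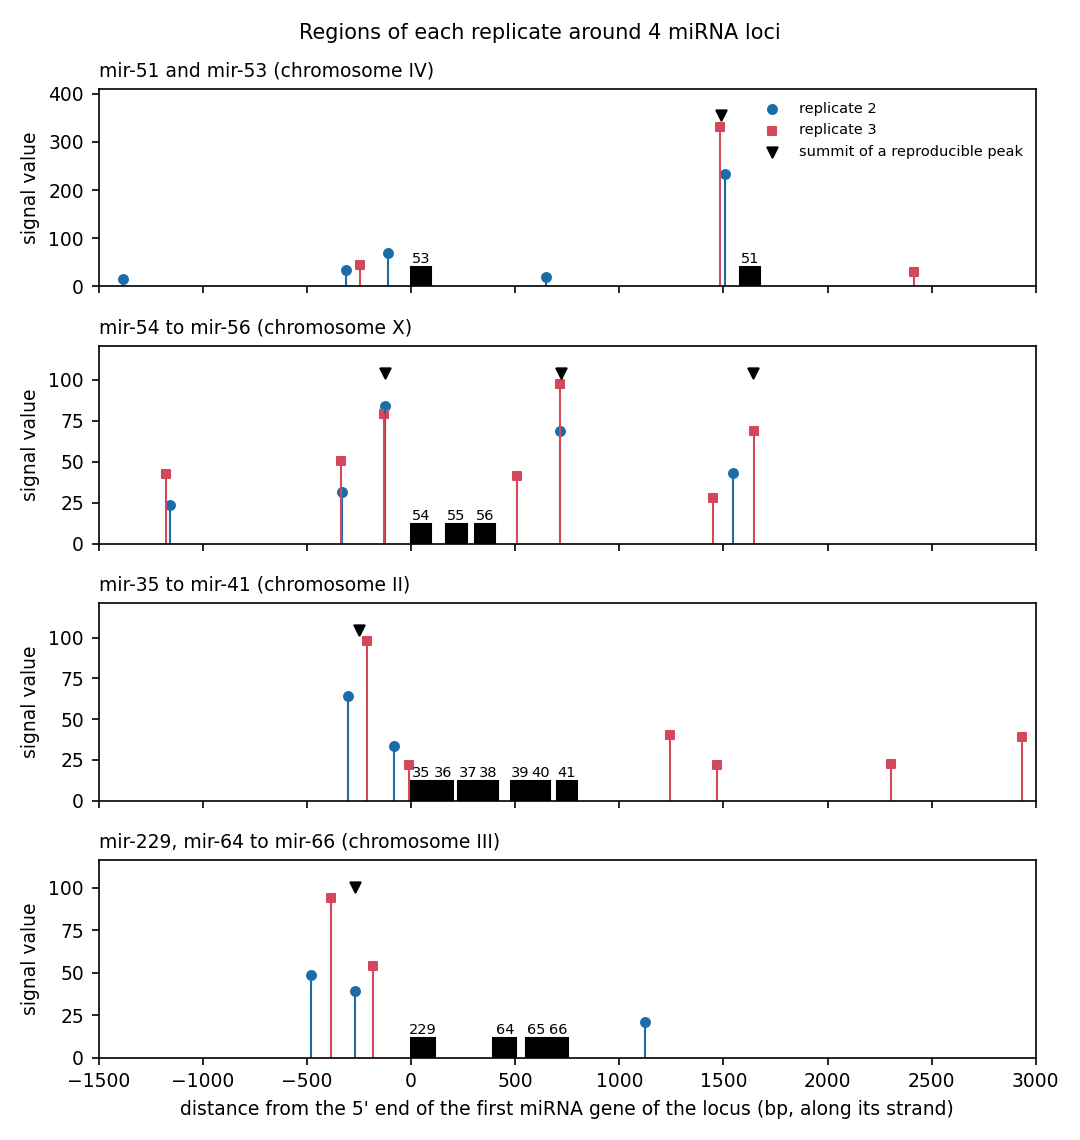
Signal value of the regions of replicate 2 (blue circles) and replicate 3 (red squares) by distance from the 5′ end of the first miRNA gene along its strand (x axis, bp), with genes as black boxes labelled by their number and reproducible summits as triangles. The peak beside mir-51 (233 and 331) exceeds every region at the other 3 loci, the mir-54 to mir-56 cluster has summits on both sides, and the replicates' summits lie apart at the mir-35 and mir-229 clusters.

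Among genes that stand alone, lin-4 is the founding miRNA of the larval timing pathway and represses lin-14. It lies in an intron of F59G1.4 on the same strand. Its peak (chrII:5901629-5902064, summit 5901847) was 407 bp upstream with a pooled signal of 117 and rank 1010, the weakest of the 15. The signal was 82.3 in replicate 3 (rank 756), and the nearest region of replicate 2 had 51.3 (rank 1113) at 103 bp from that summit. The summit lay inside the ncRNA gene F59G1.12, on the other strand, whose annotated span ends upstream of lin-4.

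The peak near mir-62, an intronic miRNA of ugt-50, was 789 bp downstream (chrX:12693236-12693671). The signal was 45.1 in replicate 2 (rank 1671) and 114 in replicate 3 (rank 315), a log2 ratio of 1.34 that was the highest of the 12. At the overlapping mir-8186.1 and mir-8186.2, the summit (chrII:18758-19193) was 278 and 279 bp away, with 44.6 in replicate 2 and 96.3 in replicate 3, and it also lay 562 bp upstream of the protein-coding gene gmeb-1. Both peaks were thus higher in replicate 3, with log2 ratios of 1.34 and 1.11. The median over all matched nuclear peaks was 0.56 (SD 0.53). The summit at mir-8192 (chrII:6943674-6944109), in an intron of flcn-1, was the only summit of the 15 inside a miRNA gene. It had 104 in replicate 3 (rank 404), and the nearest region of replicate 2 had 38.1 (rank 2996) at 139 bp.

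Some peaks counted for a miRNA gene lay as near or nearer to another gene. The peak 862 bp downstream of mir-4921 and 964 bp downstream of mir-4923.1 (chrX:1880682-1881117) had its summit 12 bp from a proline tRNA gene, Y59E1B.t2. It was strong in both replicates, with 93.5 in replicate 2 and 129 in replicate 3, ranks 197 and 212. It was the only peak of the 15 with a tRNA or snoRNA gene within 200 bp of the summit (6.67%), against 222 of the 1091 nuclear peaks (20.3%), and none had an snRNA gene there. A protein-coding 5′ end lay within 1 kb of 4 of the 15 summits (26.7%), against 516 of 1091 (47.3%). The peak 805 bp downstream of mir-5550 was 190 bp upstream of T07A9.12, with 74.1 in replicate 2 and 58.5 in replicate 3. In all, 10 of the 15 peaks, behind 21 of the 28 genes, had neither kind of gene in those distances. Summits fell in introns at 8 peaks and between genes at 7. An annotated ncRNA gene held the summit at 4 of the 15 (26.7%), against 201 of 1091 (18.4%).

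The remaining 3 peaks were on chromosome I. At mir-354, which overlaps an exon of the ribosomal protein gene rps-20, the summit was 872 bp upstream of the miRNA gene and 137 bp upstream of ekl-4. The signal was 80.2 in replicate 2 and 103 in replicate 3. The summit at mir-1824 was 349 bp downstream of it and 106 bp upstream of Y87G2A.18, with 46.3 and 75.4 in the same order. At mir-2, in an intron of ppfr-1, the summit was 210 bp upstream, with 84.4 in replicate 3 and, at 126 bp from that summit, 67.5 in replicate 2. The first 2 thus lay closer to a protein-coding 5′ end than to the miRNA gene.

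By position in the genome, 21 of the 97 miRNA genes in introns had a reproducible peak (21.6%), and 6 of the 152 intergenic ones (3.95%). Of the 12 that overlapped an exon of a protein-coding gene, 1 had such a peak. The intronic count rests largely on shared peaks. It includes all 7 genes of the mir-35 cluster, all 4 of the mir-229 cluster, and mir-54 to mir-56 with mir-55b. Where the summit lies is a different count: 8 of the 15 summits were in introns and 7 between genes. The summits at mir-1824 and mir-5550, genes in introns, and at mir-354 were between genes. This split is not given here for all nuclear reproducible peaks. Within introns the count was 9 of 67 where the host was on the same strand and 12 of 30 where it was on the opposite strand. The mir-35 cluster gave 7 of those 12 and mir-54 to mir-56 another 3, so the opposite-strand share rests mainly on 2 clusters. Of 52 clustered genes 16 had a peak (30.8%), and of 209 single genes 12 (5.74%). At the level of loci, 4 of the 18 with more than 1 gene had a peak. The cluster with mir-42 and the cluster with mir-4807 were among the 14 that had none.

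Below the reproducible list, the pooled list of 30000 regions, which includes background, reached 154 miRNA genes (59.0%), against 47.6% of all nuclear genes. The latter include 15363 piRNA genes, at 16.2%. The miRNA share was above those of snRNA genes (46.5%) and pseudogenes (38.4%). It was below those of lincRNA (61.3%), ncRNA (63.6%), protein-coding (64.8%), snoRNA (72.8%) and tRNA genes (82.8%). The difference from all genes was in the upper ranks. Regions ranked 1092 to 2182 were the best for 17 miRNA genes (6.51%, against 3.51% of all genes). Those ranked 10911 to 29977 were the best for 58 (22.2%, against 21.4%). The strongest pooled region was upstream of the miRNA gene in 90 of the 154 (58.4%, against 36.8% over all genes), inside it in 11 (7.14%, against 32.9%) and downstream in 53 (34.4%, against 30.3%).

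The 10 best-ranked genes without a reproducible peak held ranks 1157 to 1447. The first was mir-5549, with a summit 49 bp upstream and 47.0 in replicate 2 and 63.5 in replicate 3. For mir-80, of the group with the mir-58 type of seed, the summit was 183 bp upstream, with 30.0 in replicate 2 and 60.1 in replicate 3. One region, 87 bp upstream of mir-250 and inside its neighbour mir-61, had 31.3 and 72.6. For mir-90, the values were 45.7 and 75.3 at a summit 306 bp upstream. The region downstream of mir-86 and mir-8211 ranked 758 in replicate 2 and had no match within 100 bp in replicate 3, whose strongest region near mir-86 had 56.8 (rank 1952) at 568 bp downstream. For most of these regions, replicate 3 was therefore the higher, as it was at the reproducible peaks. The others were mir-58.1, with 28.2 and 53.7, mir-2211, with 41.9 and 59.9, and mir-1.

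Other well-studied miRNA genes were looked up by name. The muscle miRNA mir-1, the tenth of those genes, had a summit 359 bp upstream at rank 1447, with 51.1 in replicate 2 and 46.7 in replicate 3. For the neuronal mir-124, the best region was 286 bp downstream at rank 2604, with 20.4 in replicate 2 and 60.2 in replicate 3. The left-right asymmetry gene lsy-6, which acts in a taste neuron, had no pooled region within 1 kb. All 5 genes of the let-7 family, which act in larvae, had pooled regions, with ranks of 4581 (mir-84) to 22307 (mir-48), and none had a reproducible peak. The region of let-7 itself ranked 8509, lay inside its annotated gene of 1732 bp and had 41.5 in replicate 3 with no match within 100 bp in replicate 2. For mir-241 and mir-795, the ranks were 20078 and 16939. The mir-80 seed group likewise had pooled regions at all 6 genes and no reproducible peak, with ranks from 1343 to 25463. Within that group, mir-81 ranked 2984, mir-82 ranked 11461 and mir-58.2 ranked 24584. The region at rank 25463 was that of mir-2209.1, also of the group, which shared it with the related mir-2209.3. The related mir-2209.2 had none. Whole embryos were measured at a depth that is unknown, so a gene without a reproducible peak is not shown to be unbound.

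**Figure D5:**
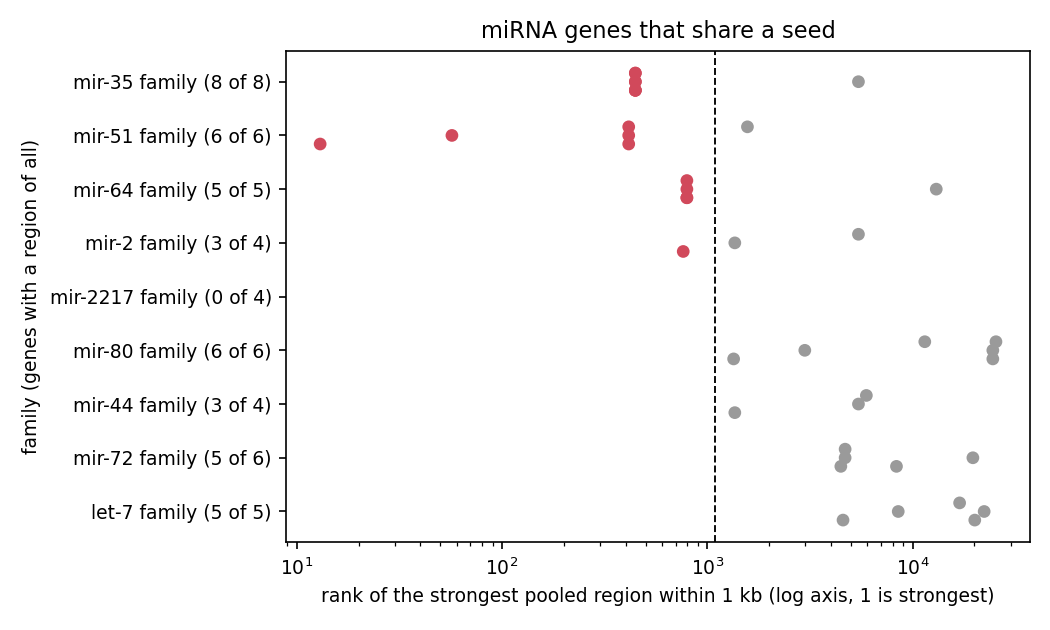
Rank of the strongest pooled region within 1 kb of each gene (x axis, log scale, 1 is strongest) for the 9 seed groups of 4 or more miRNA genes (y axis, with the number of genes that had a region). Red points are genes with a reproducible peak, which fall left of the dashed line at rank 1091, and overlapping points are genes of 1 cluster that share a region; the mir-35, mir-51 and mir-64 groups have 7, 5 and 4 such genes.

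Each replicate alone was cut at its strongest 1112 regions. Within 1 kb, replicate 2 gave 23 miRNA genes (8.81%, against 4.52% of all nuclear genes). Replicate 3 gave 29 (11.1%, against 4.49%). Of these genes, 17 were found in both replicates and 16 of the 17 were also among the 28. In 8 genes only a replicate list gave a region of that strength, and of these mir-90 had it in both replicates. All 6 genes of the mir-51 family were in the count of replicate 2 and 5 in that of replicate 3.

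Short DNA words at the summits were counted within 50 bp on either side, on both strands, beside all 1091 nuclear reproducible peaks in windows of the same length. GAGAG occurred at 8 of the 15 (53.3%), against 42.1% of all peaks, and at 3 of 15 windows placed 300 bp away (17.2% over all peaks). ACACAC was at 2 of 15 (13.3% against 17.3%). TAATTG or TAATTA, words with the core that homeodomains often bind, were at none of the 15 (4.86% over all peaks), and in the windows 300 bp away at 2. The shorter TAAT, which those words contain, was at 6 of 15 (40.0% against 33.0%) and in the windows 300 bp away at 11 (73.3% against 63.0%). These counts rest on 15 windows, and their difference from the shares over all peaks was not tested. The median G or C content of the windows was 52.5%, and 50.5% over all peaks.

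Genes of the miRNA pathway were read the same way, counting a reproducible summit within 1 kb of the 5′ end or inside the gene, which 895 of 19973 protein-coding genes had (4.48%). Of 14 genes of the machinery, 4 had one. The summit was 822 bp upstream of alg-5, an Argonaute gene, with a pooled signal of 206 and rank 230. It was 944 bp upstream of nhl-2, a cofactor of the silencing complex, with 161. It was 988 bp upstream of ain-1, a GW182-type partner of the Argonautes, with 153, and 758 bp upstream of cgh-1, a DEAD-box helicase, with 126. All 4 summits were thus upstream of the gene and nearer to 1 kb than to its 5′ end. The Argonaute genes alg-1 and alg-2 had pooled regions at ranks 2163 and 2410, pash-1, a subunit of the nuclear hairpin-cutting complex, at 1733, and its partner drsh-1 had none. Of the 10 targets and regulators found by name of 11 listed, 2 had a reproducible peak. In lin-14, the main target of lin-4, the summit lay 7831 bp into the gene with a signal of 213 and rank 215. In lin-42, a period-like regulator of miRNA transcription, it lay 5380 bp in, with 123 and rank 880. Both counts came from summits inside the gene, and 0 of the 10 had one within 1 kb of the 5′ end. The 2 genes (chrX:11465560-11485871 and chrII:1233236-1252359) are far longer than the protein-coding median of 2027 bp. A longer gene has more room for a summit.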

How the data were processed

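The deposited files are peak lists on ce11, 1 for each of 2 replicates, 1 pooled and 1 of reproducible peaks made from them by the irreproducible discovery rate, per the text files deposited beside the lists. The replicate and pooled lists hold peaks and background regions. The signal value of each region was used as the authors deposited it, with no normalization stated. Not given in the sources used here are the aligner, the peak caller and the cut for reproducibility, and depth is unknown. Chromatin was sonicated to 200 to 800 bp, per the labels.

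Genes came from Ensembl release 115, and names and mature products from the RefSeq annotation of the same assembly for 260 of 261 miRNA genes. Every nuclear region lay within the reference chromosomes. Summits were matched between lists within 100 bp and the nearest taken. Ranks are among nuclear regions. miRNA genes were clustered by same-strand gaps of at most 1 kb. No test was made, since there was 1 group. The counting was tested on simulated data, with Python 3.11.15, numpy 2.4.6, pandas 2.3.3, scipy 1.17.1 and matplotlib 3.10.9. Named genes were the 25 strongest with a reproducible peak, the next 10, and fixed families and pathway genes. mir-63, mir-66 and mir-5550 were named besides, after their values were seen. The genes, lists and words were chosen with earlier results of these data known. Some mature sequences are not reported here.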

Additional observations from a re-analysis of the deposited data

How the results depend on the processing

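The number of miRNA genes with a reproducible summit within 1 kb, 28, was 16 at a limit of 500 bp and 4 at 200 bp (6.13% and 1.53%, against 3.62% and 2.68% of all genes). With the peaks above the median signal it was 17 (6.51%, against 2.62% of all genes). Without replicate 3 it was 23 (8.81%, against 4.52%), and without replicate 2 it was 29 (11.1%, against 4.49%). Without peaks near a protein-coding 5′ end, an alternative chosen after seeing the data, it was 23 (8.81%, against 2.18%). The summit was upstream at 12 genes at 500 bp, against 20 at 1 kb. GAGAG was at 4 summits with 25 bp on either side, and at 5 to 8 without each replicate. ACACAC was at 0 with 25 bp, at 6 with 100 bp, and at 2 to 5 without each replicate. TAATTG or TAATTA was at 1 with 100 bp, and at 0 to 1 without each replicate. Of the targets and regulators, 0 had a summit within 1 kb of the 5′ end, and 1 to 2 had a peak without each replicate. No other count moved by over 1.5 times. Of the 28 genes, 10 had no region among the strongest 1112 in replicate 2 only, mir-5550 had none in replicate 3 only and mir-66 had none in either. The cause was not tested. No paired analysis was possible because there was 1 group. Depth, which is unknown, limits what the absence of a region can show.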
